A study of Homo sapiens with 6 samples.

Results

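The 10 genes described here are HMOX1, NQO1, GCLM, GCLC, TXNRD1, SRXN1, MT1X, MT1E, MT2A and SQSTM1, which cells are known to induce under oxidative, electrophilic or metal stress. They were chosen by gene symbol, as all probe sets whose symbol in the platform annotation is one of these names. That rule gave 23 of the 54613 non-control probe sets on the array, which carry 19775 gene symbols in all. The symbols, not measured values, decide which probe sets belong, but the list of genes was drawn up with earlier results of these data known. HMOX1, SRXN1 and MT2A were read by 1 probe set each, MT1X, MT1E and TXNRD1 by 2, NQO1, GCLM and GCLC by 3, and SQSTM1 by 5. The question is whether these genes go up together with HSPA6, the heat shock gene that stands out in the same arrays.

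The data come from 6 Affymetrix arrays of a single colour, 2 for each of 3 groups, hybridised with total RNA from human kidney cells grown as a line. The cells had been transfected with hIMP1 Dmut or hIMP1 wt, as the labels name these constructs, or with empty vector (mock). IMP1, encoded by IGF2BP1, is an RNA-binding protein. The labels do not name the line, say what Dmut stands for, or give the dose, promoter or time of transfection. Each array carries a number, 1 or 2, which is the first digit of the sample title, and every group has 1 array of each number. Nothing in the labels ties the arrays of a group to separate cultures. The spread behind every p-value is therefore that between arrays and may be technical. In bulk RNA, fewer cells that express a gene and less of its RNA per cell cannot be told apart.

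As background, most of the oxidative genes here answer to NRF2, a transcription factor encoded by NFE2L2. In unstressed cells the adaptor KEAP1 hands NRF2 to a ubiquitin ligase for degradation. Oxidants and electrophiles modify KEAP1, and NRF2 then enters the nucleus, pairs with a small MAF protein and binds antioxidant response elements, from which it displaces the repressor BACH1. Metallothioneins are small cysteine-rich proteins that hold zinc, copper and cadmium, and their genes are switched on by the zinc sensor MTF1 through metal response elements. HSPA6 belongs to another system, in which misfolded protein frees heat shock factor 1 to bind heat shock elements. Cadmium, arsenite and proteasome inhibitors are known to set off several of these systems at once, and HMOX1 and SQSTM1 are common readouts of such treatments.

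The promoters of 3 of the 10 genes and of HSPA6 are shown, to let the elements named above be seen in sequence. Each runs from 250 bases before to 50 bases after the listed start and comes from RefSeq, build GRCh38.p14. The deposited files name no build. Capitals mark the antioxidant response element core TGACNNNGC in GCLM, the metal response element core TGCNCNC in MT1X and MT2A, and a head-to-head or tail-to-tail pair of heat shock units (GAANNTTC or TTCNNGAA) in HSPA6, each searched on both strands.
GCLM, chr1:93909381-93909680, minus strand: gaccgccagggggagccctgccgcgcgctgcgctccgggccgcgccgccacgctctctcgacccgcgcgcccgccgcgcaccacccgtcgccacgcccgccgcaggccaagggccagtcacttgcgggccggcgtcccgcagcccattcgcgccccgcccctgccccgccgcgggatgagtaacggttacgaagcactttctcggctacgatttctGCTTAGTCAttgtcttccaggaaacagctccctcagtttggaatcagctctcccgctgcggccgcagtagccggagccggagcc
MT1X, chr16:56682220-56682519, plus strand: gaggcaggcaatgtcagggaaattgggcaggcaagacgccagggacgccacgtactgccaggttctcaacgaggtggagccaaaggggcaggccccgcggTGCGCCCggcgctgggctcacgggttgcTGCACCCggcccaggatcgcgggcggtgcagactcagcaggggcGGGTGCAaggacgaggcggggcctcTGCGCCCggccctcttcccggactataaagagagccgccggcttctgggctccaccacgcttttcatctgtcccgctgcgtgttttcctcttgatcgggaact
MT2A, chr16:56608334-56608633, plus strand: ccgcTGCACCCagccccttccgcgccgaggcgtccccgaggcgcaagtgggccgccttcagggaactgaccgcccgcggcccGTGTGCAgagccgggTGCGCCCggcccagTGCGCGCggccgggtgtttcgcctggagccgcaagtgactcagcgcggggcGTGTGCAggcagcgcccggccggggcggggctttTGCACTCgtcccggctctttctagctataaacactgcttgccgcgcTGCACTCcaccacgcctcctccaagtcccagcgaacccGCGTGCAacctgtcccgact
HSPA6, chr1:161524290-161524589, plus strand: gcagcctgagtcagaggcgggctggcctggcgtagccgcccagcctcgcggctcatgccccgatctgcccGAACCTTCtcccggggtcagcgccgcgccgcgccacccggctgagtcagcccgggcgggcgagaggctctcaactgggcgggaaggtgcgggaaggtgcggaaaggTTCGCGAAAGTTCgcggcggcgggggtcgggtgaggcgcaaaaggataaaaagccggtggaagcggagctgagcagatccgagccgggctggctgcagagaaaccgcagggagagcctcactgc
GCLM held 1 antioxidant core, 34 bases before the start. GCLM also held 1 metal core, 222 bases before it. MT2A held 8 metal cores and MT1X held 4, and each also held 1 antioxidant core. HSPA6 held 3 heat shock pairs, at 180, 74 and 69 bases before the start, of which the last overlap each other, and 1 antioxidant core. Of the 10 genes 8 had a promoter entry (HMOX1 and MT1E had none): 4 of these, GCLM, TXNRD1, MT1X and MT2A, held an antioxidant core, 7 (all but NQO1) held a metal core, and 0 held a heat shock pair. The motifs do not sort the genes by system, since the HSPA6, MT1X and MT2A promoters hold antioxidant cores and that of GCLM a metal core. Among all 35116 listed promoters of this length, 13.35% hold the antioxidant core, 55.89% the metal core and 13.49% a heat shock pair, and no overlap between different motifs was found in the promoters searched. A match describes the letters in this window and no more.

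The heat shock genes come first, as the genes the stress genes are to be set beside. HSPA6, an HSP70 chaperone with little expression outside stress, had intensities of 1033 and 824 on hIMP1 Dmut arrays 1 and 2 and of 646 and 454 on the hIMP1 wt arrays, against 28.6 and 3.02 on the mock arrays. Every construct array lay far above both mock arrays, and the lowest construct array read 454 where the highest mock array read 28.6. Mock array 2, at 3.02, was under that array's lower quartile of 8.26, and the log2 values of mock, 5.23 and 3.59, lie on either side of the filter of 5.19 and average below it, so the probe set was tested only because of the construct arrays. The size of its difference therefore depends on the offset added before taking logs. On the log2 scale used throughout, log2 of the intensity plus 9.05, HSPA6 rose by 5.45 ± 0.44 (SE) with hIMP1 Dmut (95% interval 4.47 to 6.43; limma, adjusted p = 0.00292) and by 4.69 ± 0.44 with hIMP1 wt (3.71 to 5.67; limma, adjusted p = 0.0119). With the offset at the 10th percentile or at the median these were 6.14 and 4.41 with hIMP1 Dmut, and 5.37 and 3.68 with hIMP1 wt. Both probe sets of HSPA6 passed the threshold of 0.05, and they were the only ones of 27307 tested that did so in either comparison. The second probe set read 13.6 and 2.57 on the mock arrays, with log2 values of 4.50 and 3.54, both below the filter. It too was tested only because of the construct arrays, and the size of its difference also depends on the offset. HSPA7, a pseudogene of nearly the same sequence, may contribute to the signal. The call for the brightest HSPA6 probe set was lost in both comparisons without hIMP1 Dmut array 1 or array 2. Its differences were then 5.29 and 5.61 with hIMP1 Dmut, and 4.69 with hIMP1 wt in both fits. The second HSPA6 probe set was not followed in these fits. DNAJB1, the HSP40 partner of HSP70, had 1043 and 884 with hIMP1 Dmut and 771 and 714 with hIMP1 wt, against 530 and 489 with mock, and its differences of 0.90 ± 0.18 and 0.54 ± 0.18 did not pass (adjusted p = 1). Its second probe set differed by 1.16 ± 0.26 and 0.84 ± 0.26 and did not pass either.

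None of the 10 stress genes passed that test with either construct. After a filter that keeps the brighter part of the array, 19 of the 23 probe sets were tested, and 0 of 19 were called in hIMP1 Dmut minus mock, where 0.00732% of all tested probe sets were called. The count was also 0 of 19 in hIMP1 wt minus mock (background 0.00732%), in hIMP1 Dmut minus hIMP1 wt (background 0%) and for both constructs against mock (background 0.00732%). In this fit, which has no term for the array number, the count at an unadjusted p under 0.05 was also 0 in each of the 4 comparisons, where the backgrounds were 1.42%, 1.03%, 1.23% and 1.27% in the same order. Each gene is described below by its brightest probe set, with its levels first. Both construct comparisons use the same mock arrays and are not independent of each other.

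**Figure D1:**
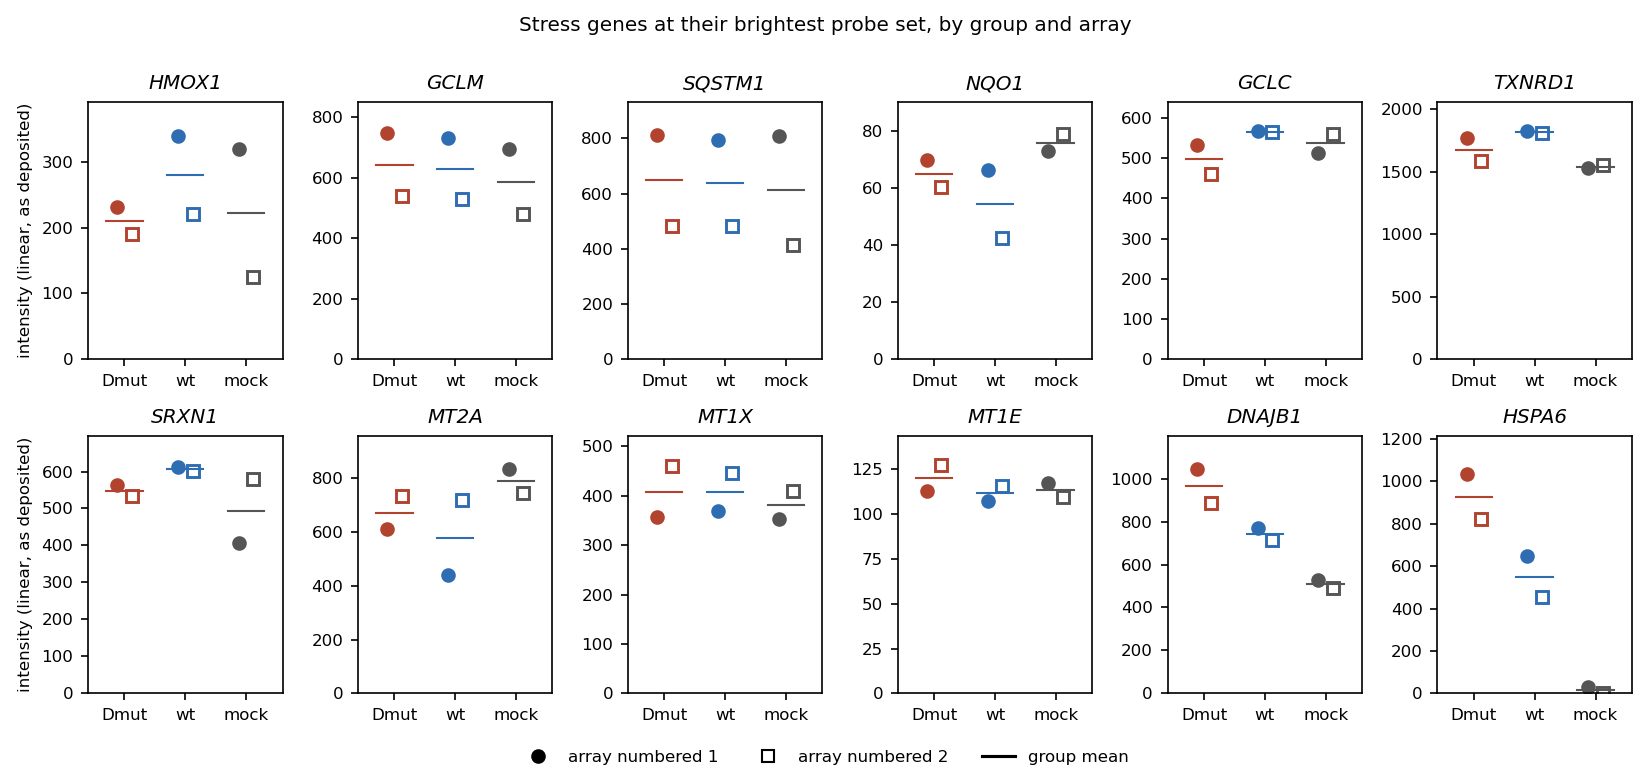
Deposited intensity (linear, each axis from 0) of the 10 stress genes, of DNAJB1 and of HSPA6 at their brightest probe set. Filled circles are arrays numbered 1, open squares arrays numbered 2, and lines are group means of 2 arrays. HSPA6 separates both constructs from mock. HMOX1, GCLM and SQSTM1, higher on the arrays numbered 1, and MT1X, higher on those numbered 2, separate the array numbers.

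HMOX1 encodes heme oxygenase 1, which breaks heme down to biliverdin, iron and carbon monoxide. Its intensity was 231 and 191 on hIMP1 Dmut arrays 1 and 2, 339 and 220 on the hIMP1 wt arrays, and 319 and 125 on the mock arrays. Both mock arrays lay outside the pair of hIMP1 Dmut arrays, 1 above and 1 below, so the groups overlapped. The means were 211 ± 28.3 with hIMP1 Dmut, 279 ± 83.9 with hIMP1 wt and 222 ± 137 with mock (SD, n = 2 each). The log2 difference from mock was 0.06 ± 0.38 (SE; 95% interval -0.79 to 0.91) with hIMP1 Dmut and 0.43 ± 0.38 (-0.42 to 1.28) with hIMP1 wt. Within the arrays numbered 1 and 2 these were -0.45 and 0.57 for hIMP1 Dmut, and 0.09 and 0.77 for hIMP1 wt. Mock array 2 decides the sign for hIMP1 wt, since the difference was -0.22 without it and 1.07 without mock array 1.

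NQO1, a quinone reductase and a textbook NRF2 target, was dim on these arrays. Its brightest probe set read 70.1 and 60.3 with hIMP1 Dmut and 66.3 and 42.5 with hIMP1 wt, against 73 and 79 with mock. All 4 construct arrays lay below both mock arrays, where 3.86% of all tested probe sets did so. The log2 difference was -0.20 ± 0.31 with hIMP1 Dmut and -0.45 ± 0.31 with hIMP1 wt (95% interval -1.15 to 0.25). A dimmer probe set of NQO1 gave 0.03 ± 0.35 and -0.09 ± 0.35, and the dimmest, between 1.42 and 18.7 on the 6 arrays, was below the filter.

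The enzyme that makes the glutathione precursor gamma-glutamylcysteine has a catalytic subunit, GCLC, and a modifier subunit, GCLM. GCLM read 748 and 539.7 with hIMP1 Dmut and 731 and 529.6 with hIMP1 wt, against 697 and 479 with mock. In each group array 1 was the brighter, and the groups overlapped. Its differences from mock were 0.13 ± 0.25 (95% interval -0.43 to 0.70) with hIMP1 Dmut and 0.10 ± 0.25 (-0.46 to 0.67) with hIMP1 wt. The other probe sets of GCLM gave 0.37 ± 0.44 and -0.01 ± 0.29 with hIMP1 Dmut, and 0.03 ± 0.44 and -0.02 ± 0.29 with hIMP1 wt. GCLC read 532 and 462 with hIMP1 Dmut and 567 and 565 with hIMP1 wt, against 513 and 560.5 with mock. The hIMP1 wt arrays lay just above both mock arrays, and those of hIMP1 Dmut overlapped mock. The differences of GCLC were -0.11 ± 0.18 and 0.08 ± 0.18, with 0.19 ± 0.20 and 0.13 ± 0.20 at its second probe set, and 0.10 ± 0.48 and -0.42 ± 0.48 at the third, which was dim, between 13.5 and 53 on the 6 arrays. The sign thus depends on the probe set with both constructs.

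TXNRD1 and SRXN1 keep thiol proteins reduced: thioredoxin reductase 1 recycles thioredoxin, and sulfiredoxin repairs over-oxidised peroxiredoxins. TXNRD1 read 1769 and 1584 with hIMP1 Dmut and 1827 and 1815 with hIMP1 wt, against 1530 and 1552 with mock. It is the only one of the 10 genes whose construct arrays all lay above both mock arrays, where 3.9% of all tested probe sets did so. The differences were small, 0.12 ± 0.16 (95% interval -0.24 to 0.48) with hIMP1 Dmut and 0.24 ± 0.16 (-0.12 to 0.60) with hIMP1 wt, and positive within both numbers: 0.21 and 0.03 for hIMP1 Dmut, and 0.25 and 0.22 for hIMP1 wt. A second TXNRD1 probe set lay below the filter, between 0.277 and 12.2, and averaging both turned the value for hIMP1 wt to -0.05. SRXN1 read 563 and 533 with hIMP1 Dmut and 612 and 602 with hIMP1 wt, against 407 and 579 with mock. The hIMP1 wt arrays lay above both mock arrays and those of hIMP1 Dmut between them. The difference with hIMP1 wt was 0.32 ± 0.21 (95% interval -0.15 to 0.78), made of 0.58 for the number 1 arrays and 0.05 for the number 2 arrays. Leaving out mock array 1 gave 0.07. With hIMP1 Dmut it was 0.17 ± 0.21.

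SQSTM1 encodes p62, an autophagy receptor that gathers ubiquitinated protein and can also hold KEAP1 away from NRF2. It read 813 and 482 with hIMP1 Dmut and 796 and 484 with hIMP1 wt, against 809 and 414 with mock. The 3 arrays numbered 1 were nearly equal, as were the construct arrays numbered 2, whatever the construct. The differences from mock were 0.11 ± 0.36 with hIMP1 Dmut (95% interval -0.68 to 0.91) and 0.10 ± 0.36 with hIMP1 wt (-0.70 to 0.89). Within the arrays numbered 1 they were 0.01 and -0.02, and within those numbered 2 they were 0.21 and 0.22. The next brightest probe sets of SQSTM1 gave differences between 0.001 and 0.21, and the remaining pair lay below the filter, between 0.997 and 42.7.

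The metallothionein probe sets need a caution of their own. All 5 carry an ID that ends in _x_at, the manufacturer's mark for sets whose probes can also bind other sequences, and metallothionein genes are close in sequence, so their signals may be shared. Of the other 18 probe sets 0 carry that mark, while 7 end in _s_at, among them the brightest of NQO1, GCLC and SQSTM1. Whether signal is shared at those sets was not tested. MT2A, the most widely expressed human metallothionein, read 611 and 732 with hIMP1 Dmut and 438 and 718 with hIMP1 wt, against 834 and 743 with mock. All 4 construct arrays lay below both mock arrays, where 3.86% of all tested probe sets did so. The difference was -0.23 ± 0.24 (95% interval -0.77 to 0.30) with hIMP1 Dmut and -0.48 ± 0.24 (-1.02 to 0.05) with hIMP1 wt. The second of these had the smallest unadjusted p among the stress genes in that comparison, 0.0729 in the limma fit (adjusted p = 1), and 0.0215 with the array number as a block (interval -0.88 to -0.08; adjusted p = 1). It rested on hIMP1 wt array 1: the difference was -0.92 within the arrays numbered 1, -0.05 within those numbered 2, and -0.13 without that array.

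MT1X read 356 and 460.1 with hIMP1 Dmut and 370.02 and 446 with hIMP1 wt, against 353 and 409 with mock. The groups overlapped, with array 2 above array 1 in each. Its differences were 0.09 ± 0.21 with hIMP1 Dmut and 0.09 ± 0.21 with hIMP1 wt, while a second probe set gave -0.25 ± 0.26 and -0.12 ± 0.26. MT1E read 113 and 127 with hIMP1 Dmut and 107 and 116 with hIMP1 wt, against 117 and 109 with mock. These groups overlapped too, with differences of 0.07 ± 0.24 and -0.02 ± 0.24. The second probe set of MT1E gave 0.16 ± 0.37 with hIMP1 Dmut and 0.46 ± 0.37 with hIMP1 wt. All 3 genes lie in the metallothionein cluster on chromosome 16.

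Side by side, the 10 genes differed little from mock in either direction. With hIMP1 Dmut 7 were higher and 3 (NQO1, GCLC and MT2A) lower, between -0.23 and 0.17, with a median of 0.08 beside 0.01 over all tested probe sets. With hIMP1 wt 7 were higher and 3 lower (NQO1, MT1E and MT2A), between -0.48 and 0.43, with a median of 0.10 beside -0.01. Over all 12269 genes 48.7% were higher with hIMP1 Dmut and 46.5% with hIMP1 wt. The median absolute difference of the 10 genes with hIMP1 Dmut was 0.11, beside 0.15 over all tested probe sets. With hIMP1 wt it was 0.17, beside 0.13. The 95% interval of every one of the 10 genes included 0 in both comparisons. At the brightest probe sets the highest upper bound was that of HMOX1, at 1.88-fold with hIMP1 Dmut and 2.42-fold with hIMP1 wt. Dimmer tested probe sets reached higher, up to 2.55-fold with hIMP1 Dmut (the second of GCLM) and 2.44-fold with hIMP1 wt (the second of MT1E). The medians turned negative without mock array 2 (-0.090 with hIMP1 Dmut and -0.11 with hIMP1 wt), and that for hIMP1 Dmut also without hIMP1 Dmut array 1 (-0.084). These are folds of the intensity plus the offset, which lowers the fold of dim probe sets.

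**Figure D2:**
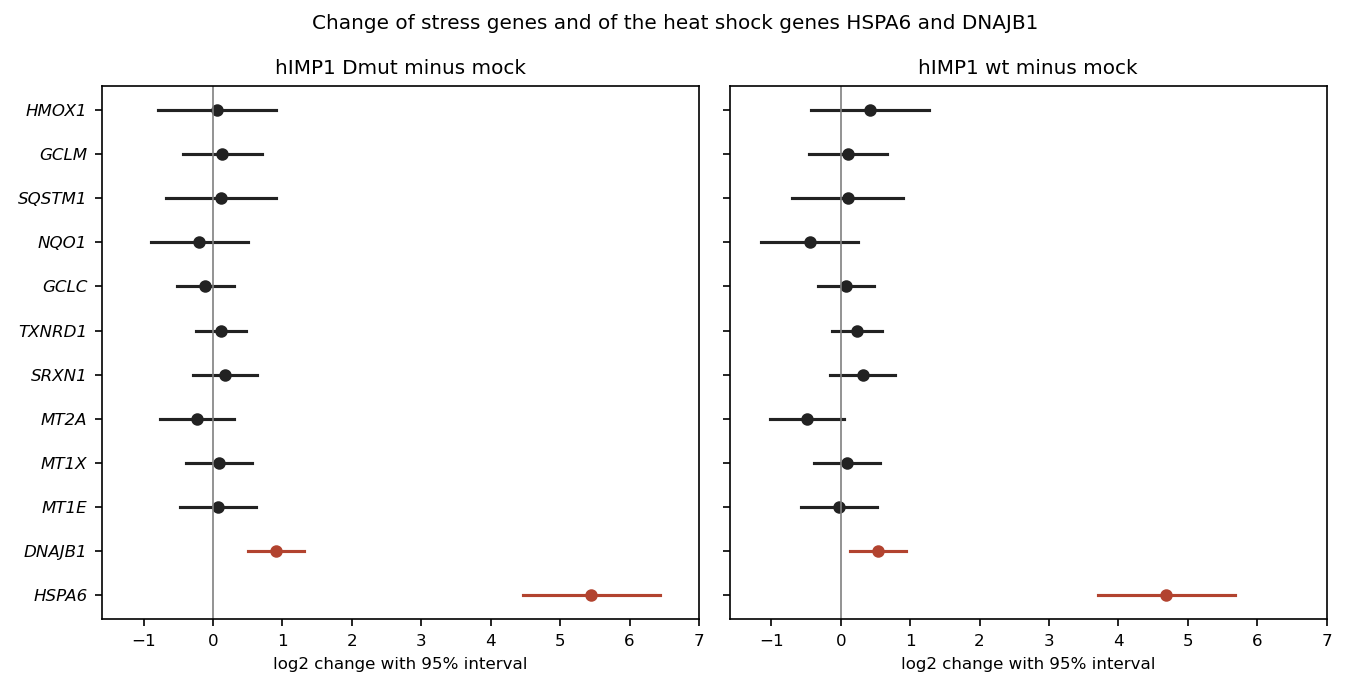
Log2 difference from mock (dots) with its 95% interval (bars) for hIMP1 Dmut on the left and hIMP1 wt on the right, at the brightest probe set of each gene. The intervals of the 10 stress genes, in black, all include 0 and end at or below 1.28, while those of HSPA6, whose size depends on the offset, start at 4.47 and 3.71 and those of DNAJB1 at 0.50 and 0.13, both genes in red.

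Some genes had arrays that did not overlap with mock, and these counts were near or above the share over all tested probe sets. With hIMP1 Dmut 2 of the 19 tested probe sets (of TXNRD1 and the second of GCLC) lay wholly above mock and 2 (NQO1 and MT2A) wholly below, where 12.6% and 11% of all tested probe sets did so. With hIMP1 wt 3 of 19 (GCLC, TXNRD1 and SRXN1) lay above and 2 (NQO1 and MT2A) below, where 9.72% and 11.6% did. For both constructs together 1 of 19 (TXNRD1) lay above and 2 (NQO1 and MT2A) below, where 3.9% and 3.86% did. With 2 arrays against 2, an exact permutation test cannot give a p under 0.333.

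The constructs did not differ from each other at any of the 10 genes by the same test. The largest difference of hIMP1 Dmut minus hIMP1 wt was that of HMOX1, at -0.37 ± 0.38 (SE; 95% interval -1.22 to 0.48), with -0.54 and -0.20 within the arrays numbered 1 and 2. MT2A and NQO1 were each 0.25 higher with hIMP1 Dmut, with intervals of -0.29 to 0.79 and -0.45 to 0.95. GCLC, TXNRD1 and SRXN1 lay wholly lower with hIMP1 Dmut at their brightest probe sets, the only 3 of 19, where 8.89% of all tested probe sets did so. The second GCLC probe set was the 1 of 19 that lay wholly higher (background 13.1%). Their differences were -0.19 ± 0.18, -0.12 ± 0.16 and -0.14 ± 0.21. Of the 10 genes 5 lay higher and 5 lower, and the median was 0.004 beside 0.02 over all tested probe sets. That median was -0.19 without hIMP1 Dmut array 1, -0.083 without hIMP1 wt array 1 and -0.14 without hIMP1 wt array 2. HSPA6 was 0.76 ± 0.44 higher with hIMP1 Dmut (limma, adjusted p = 1).

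The array number moved several of these genes more than the construct did. SQSTM1, GCLM and HMOX1 were lower on the arrays numbered 2 in all 3 groups, and the second probe set of MT1X was higher. This comparison was added after the data had been seen, with group and number as terms of the limma fit. It called 4 of the 19 tested probe sets of the stress genes, where 5.71% of all tested probe sets were called. SQSTM1 had the largest such difference of the called sets, -0.80 ± 0.12 for number 2 minus number 1 (limma, adjusted p = 0.00462), with -0.75, -0.71 and -0.95 in hIMP1 Dmut, hIMP1 wt and mock. Its second probe set differed by -0.70 ± 0.20 (adjusted p = 0.0585 in limma). The third went the other way, reading 68.2 against 34 in hIMP1 Dmut, 53.2 against 35 in hIMP1 wt and 57.5 against 28.5 in mock, a difference of 0.72 ± 0.27 (limma, adjusted p = 0.14). The probe sets of SQSTM1 therefore disagree in direction.

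GCLM differed by -0.48 ± 0.11 between the numbers (limma, adjusted p = 0.0317), by nearly the same amount in each group: -0.46 in hIMP1 Dmut, -0.46 in hIMP1 wt and -0.53 in mock. Its other probe sets differed by -0.81 ± 0.22 and -0.45 ± 0.16 (limma, adjusted p = 0.0509 and 0.114). HMOX1 differed by -0.72 ± 0.18 (limma, adjusted p = 0.0433), unevenly: -0.26 in hIMP1 Dmut, -0.60 in hIMP1 wt and -1.29 in mock. The second probe set of MT1X read 397 against 288 in hIMP1 Dmut, 422 against 327 in hIMP1 wt and 502 against 325 in mock, number 2 first. It was higher on every array numbered 2, by 0.47 ± 0.13 (limma, adjusted p = 0.0488), and the brighter MT1X probe set by 0.28 ± 0.12 (adjusted p = 0.205 in limma). The brightest HSPA6 probe set differed by -0.82 ± 0.22 (limma, adjusted p = 0.047), with -0.32 in hIMP1 Dmut, -0.50 in hIMP1 wt and -1.64 in mock, where array 2 was below the lower quartile. The second HSPA6 probe set differed by -0.57 ± 0.19 (adjusted p = 0.109 in limma).

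These calls stand on few arrays. Without either mock array or either hIMP1 wt array 1 stress probe set was called, SQSTM1, and without either hIMP1 Dmut array 7 were. Without a mock array HMOX1 differed by -0.43, with a limma adjusted p of 0.331 without array 1 and 0.306 without array 2. In the same fits the limma adjusted p of GCLM was 0.179 and 0.185, and that of the second MT1X probe set 0.292 and 0.307. Of the 19 probe sets 6 had all arrays numbered 2 below all arrays numbered 1, where 14.8% of all tested probe sets did, and 4 had them above, where 14.5% did. Several of these probe sets read the same gene. At the brightest probe sets 3 of the 10 genes (HMOX1, GCLM and SQSTM1) lay below and 1 (MT1X) above. With 3 arrays against 3, an exact permutation test cannot give a p under 0.1. The labels do not say what the number stands for.

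**Figure D3:**
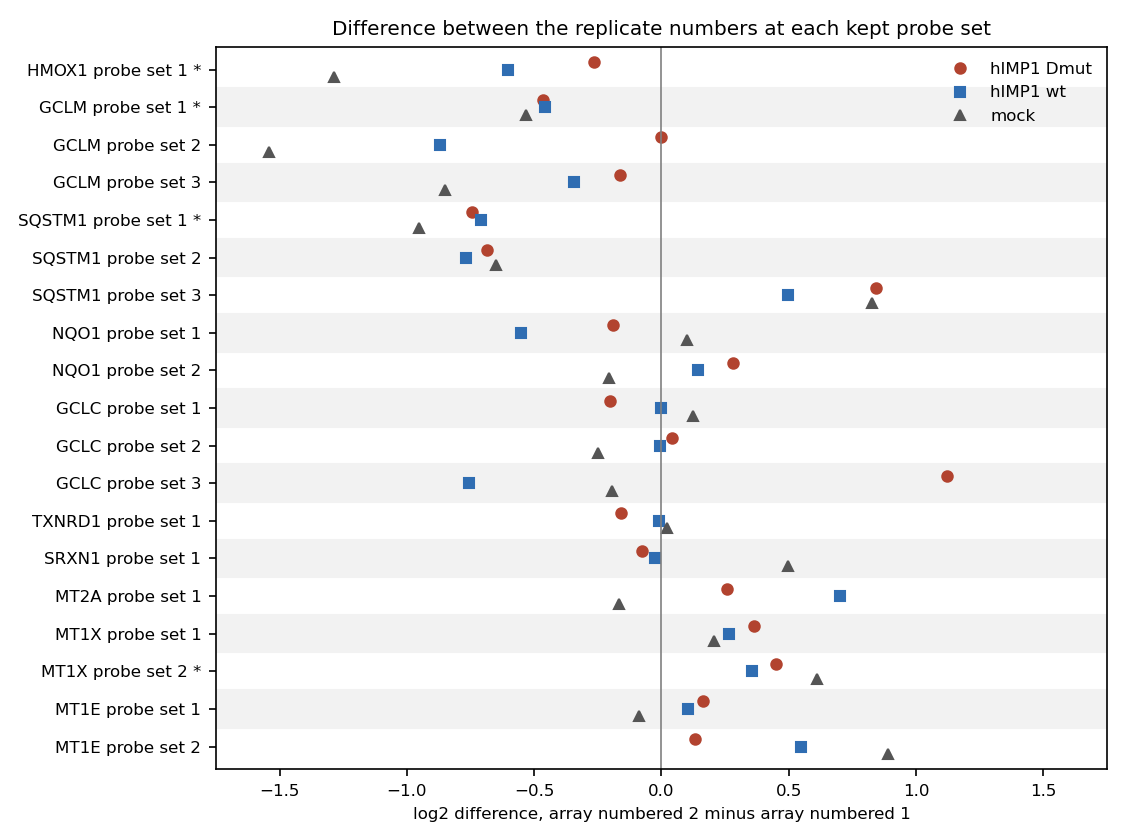
Log2 difference of array 2 minus array 1 within hIMP1 Dmut (circles), hIMP1 wt (squares) and mock (triangles), at each of the 19 tested probe sets. An asterisk marks the 4 probe sets called between the numbers: HMOX1, GCLM and SQSTM1 lie left of 0 in all groups and the second MT1X probe set right of 0, while the third SQSTM1 probe set lies opposite to its first.

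The other genes of the same pathways were read from lists of regulators, targets and transporters, each gene by its brightest tested probe set. None of these genes was called in a construct comparison. Over all 12269 genes 48.7% were higher with hIMP1 Dmut and 46.5% with hIMP1 wt. NFE2L2, which encodes NRF2, differed by 0.16 ± 0.17 with hIMP1 Dmut and 0.10 ± 0.17 with hIMP1 wt. KEAP1 differed by -0.10 ± 0.19 and 0.03 ± 0.19, and BACH1 by 0.21 ± 0.23 and 0.09 ± 0.23. Of the 7 measured NRF2 regulators 4 were higher with hIMP1 Dmut and 6 with hIMP1 wt, with medians of 0.06 and 0.09. RBX1, a subunit of the ligase that degrades NRF2 (-0.23 ± 0.20), NFE2L2, the small MAF gene MAFG (0.27 ± 0.33) and the ligase scaffold CUL3 (-0.13 ± 0.17) had the smallest p, the first pair with hIMP1 Dmut and the second with hIMP1 wt.

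Of 18 other NRF2 target genes 6 were higher and 12 lower with hIMP1 Dmut, with a median of -0.10, and 4 higher and 14 lower with hIMP1 wt, with a median of -0.04. With hIMP1 Dmut the direction turned with the array number: 7 of 18 were lower within the arrays numbered 1 (median 0.06) and 14 of 18 within those numbered 2 (median -0.28). Those of smallest p were EPHX1, an epoxide hydrolase (-0.56 ± 0.23), and PGD, of the pentose phosphate pathway (-0.35 ± 0.17), with hIMP1 Dmut, and the aldo-keto reductases AKR1C1 (-0.51 ± 0.44) and AKR1C2 (-0.43 ± 0.39) with hIMP1 wt. Of 19 other antioxidant enzymes 3 were higher and 16 lower with hIMP1 Dmut (median -0.15), and 8 higher and 11 lower with hIMP1 wt (median -0.07). With hIMP1 Dmut 11 of 19 were lower within the arrays numbered 1 and 18 of 19 within those numbered 2. MSRA, a methionine sulfoxide reductase, differed by -0.43 ± 0.27 and -0.23 ± 0.27, the mitochondrial peroxiredoxin PRDX3 by -0.27 ± 0.17 with hIMP1 Dmut, and the glutaredoxin GLRX2 by -0.19 ± 0.18 with hIMP1 wt. Of 11 genes of glutathione synthesis and transfer 0 were higher and 11 lower with hIMP1 Dmut (median -0.27, with -0.07 and -0.40 within the arrays numbered 1 and 2), but 6 higher and 5 lower with hIMP1 wt (median 0.004). The glutathione transferases GSTO1 (-0.39 ± 0.21) and GSTK1 (-0.53 ± 0.31) had the smallest p with hIMP1 Dmut, and GSTK1 (-0.36 ± 0.31) and MGST2 (0.21 ± 0.23) with hIMP1 wt.

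On the metal side MTF1, the zinc sensor, differed by 0.04 ± 0.26 with hIMP1 Dmut and -0.10 ± 0.26 with hIMP1 wt. MT1G read 166 and 142 with hIMP1 Dmut and 150.4 and 170.3 with hIMP1 wt, against 266 and 209.7 with mock. All construct arrays lay below both mock arrays, where 3.86% of all tested probe sets did so. The differences of MT1G, -0.59 ± 0.23 and -0.54 ± 0.23, did not pass (limma, unadjusted p = 0.0301 and 0.0451, adjusted p = 1). Over all tested probe sets 1.42% with hIMP1 Dmut and 1.03% with hIMP1 wt had an unadjusted p under 0.05 in limma. MT1F differed by -0.39 ± 0.27 and -0.10 ± 0.27, and MT1H by 0.06 ± 0.35 and -0.01 ± 0.35. Of 25 genes of metal sensing and transport 14 were higher and 11 lower with hIMP1 Dmut, and 13 higher and 12 lower with hIMP1 wt. The zinc carrier SLC39A7 differed by 0.68 ± 0.49 and SLC39A1 by -0.30 ± 0.24 with hIMP1 Dmut. The transferrin receptor TFRC (0.38 ± 0.17) and the zinc exporter SLC30A1 (-0.21 ± 0.17), itself a known MTF1 target, had the smallest p with hIMP1 wt. Beside SQSTM1, 10 genes of autophagy receptors and ATG8 proteins split 6 higher and 4 lower with each construct. WDFY3 (0.31 ± 0.23) and OPTN (0.31 ± 0.24) led with hIMP1 Dmut, and GABARAP (-0.19 ± 0.18) and GABARAPL2 (-0.12 ± 0.19) with hIMP1 wt.

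Between the array numbers, genes of these pathways passed the test in both directions. Over all tested probe sets 5.71% passed it. SLC7A11, the cystine carrier that feeds glutathione synthesis, rose on the arrays numbered 2 by 0.74 ± 0.12 (limma, adjusted p = 0.00861), as did BLVRB, a biliverdin reductase (0.94 ± 0.14; adjusted p = 0.00443), and PIR, encoding pirin (0.83 ± 0.15; adjusted p = 0.0125). SLC7A11 read 1483 against 902 in hIMP1 Dmut, 1151 against 804 in hIMP1 wt and 1403 against 694 in mock, number 2 first. These 3 and 12 more of the 18 other NRF2 targets were higher on the arrays numbered 2, with a median of 0.26, where 52.2% of all genes were. NRF2 targets thus moved in both directions: HMOX1 and GCLM fell on the arrays numbered 2 where SLC7A11, BLVRB and PIR rose. The small MAF genes MAFF and MAFG fell by 1.30 ± 0.28 and 0.65 ± 0.15 (limma, adjusted p = 0.0227 and 0.0314). Of the 11 glutathione genes 9 were higher and 2 lower (median 0.44), with GSTP1, GSTM3, GSTA4 and MGST3 called, all higher. Of the 19 antioxidant enzymes 16 were higher and 3 lower (median 0.20), with TXN2, MSRB2, SESN1 and SESN2 called, all higher. SLC39A7 fell by 1.07 ± 0.19, SLC39A10 and ATOX1 rose by 0.47 ± 0.12 and 0.53 ± 0.12, and the autophagy receptor CALCOCO2 rose by 0.48 ± 0.12. The fits of these pathway genes were not repeated with an array left out.

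**Figure D4:**
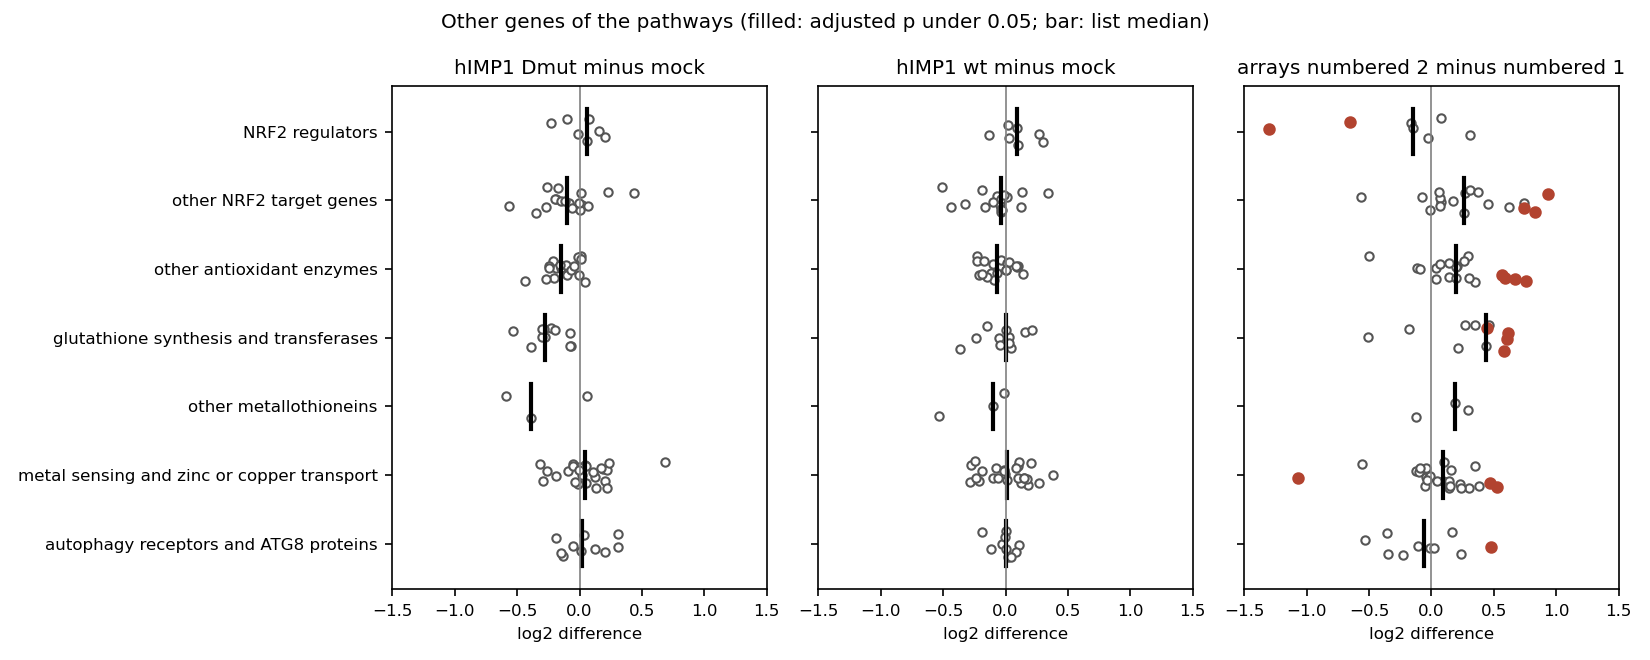
Log2 difference of each gene of 7 pathway lists (circles) with the list median (bars), for hIMP1 Dmut minus mock, hIMP1 wt minus mock, and arrays numbered 2 minus arrays numbered 1. Filled circles passed the adjusted threshold of 0.05: 0 in the construct comparisons, and genes on both sides of 0 between the numbers, such as MAFF at -1.30 and BLVRB at 0.94.

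The genes whose pattern over the 6 arrays was most like that of the widest-ranging stress genes were found by the root mean square difference of centred log2 values. HMOX1 ranged over 1.37 log2 units, and NTRK2 (0.081), NPAP1 (0.123) and KIF12 (0.128) came nearest of 12269 genes, with 33 genes within 0.2. MT2A ranged over 0.92 units, and PAQR9 (0.056), PLEKHG3 (0.083) and EDA (0.084) came nearest, with 275 within 0.2. All 6 of these genes were dim, between 15.3 and 61.1 on the 6 arrays.

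The arrays had median intensities of 26.7 to 33.7, and the 10 genes' median, relative to each gene's own mean, lay between -0.08 and 0.11 log2 units on each. Across tested probe sets, arrays that share a number correlated at 0.970 to 0.980 and arrays that share a group at 0.963 to 0.964, as a description. Of 13 kidney epithelial markers on the array 10 were above the filter, among them PAX8, KRT8 and KRT18, while PAX2, CDH16 and AQP1 were not. Summed over all 13, kept or not, their intensities were 2456 to 2807 per array. Of 4 blood cell markers 2 (CD3E and HBB) were above the filter, and PTPRC and CD14 were not. All 4 summed to 75.9 to 124 per array. Of 9 fibroblast and endothelial markers 2 (COL1A1 and PECAM1) were above the filter, and all 9 summed to 209.7 to 356 per array. The part of these markers in the values of the stress genes was not tested.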

How the data were processed

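Each probe set has 1 deposited intensity per array, on a linear scale. What software the authors used is not given in the sources used here. The mean without the lowest and highest 2% of values was 150.02 for all 6 arrays, but their medians differed, which is what 1 scaling factor per array would leave. Detection calls were not used. Groups and numbers came from the labels' descriptions and titles.

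Control probe sets (62) were dropped. Intensities entered as log2 of the intensity plus 9.05, the pooled lower quartile, and kept where the mean over the 6 arrays reached the median of such means (5.19), which left 27307 of 54613 probe sets. Symbols came from the platform annotation; 41091 of these probe sets had 1 symbol, 1801 several and 11721 none, and 0 with several held a member. One model with a mean for each group was fitted to the 6 arrays in limma 3.58.1 under R 4.3.3 (lmFit, eBayes with an intensity trend). Its residual degrees of freedom are 3, and those of the prior 7.03. P-values are two-sided and were adjusted by Benjamini-Hochberg across the kept probe sets, with 0.05 as the threshold. The fit of the array number had group and number as terms and 2 residual degrees of freedom. Errors are standard errors unless marked SD, and precision is limited by how few arrays there are. The code was tested on simulated data.

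The members and all lists were chosen with earlier results of these data known. Named are all members, HSPA6 and DNAJB1, NFE2L2, KEAP1, BACH1 and MTF1, the 2 genes of smallest p per list and construct comparison, and the 3 nearest patterns of 2 members. Genes named for the array number, and MT1H, fall outside that rule and were chosen after their values were seen. The promoter and gene tables were those of RefSeq, GRCh38.p14. Alternatives were quantile, median and cyclic loess scaling, the offset moved to the 10th percentile or to the median, no filter or one at the 75th percentile, the number as a block, a prior without trend or robust, only the arrays compared, each array left out, and the mean of a gene's probe sets. Leaving out the metallothioneins and comparing the numbers were added after seeing the data.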

Additional observations from a re-analysis of the deposited data

How the results depend on the processing

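None of the stress genes passed the threshold in a construct comparison under any alternative that was tested. The alternatives gave 702 values of single genes, of which the means of a gene's probe sets had no test and could not pass. Of the 702 values 58 changed sign (39 with an array left out, 14 with the mean of a gene's probe sets, 5 with another scaling) and 43 moved by over 1 SD. That SD is of the gene's own log2 values within groups. The median log2 difference of the 10 genes was set beside the SD within groups of the array medians of these genes. It moved by over 1 SD under the settings below, though the ranges with an array left out also hold smaller moves. With hIMP1 Dmut minus mock the median was 0.012 under median scaling and -0.090 to 0.092 with an array left out. With hIMP1 wt minus mock it was 0.0029 with the mean of probe sets and -0.11 to 0.16 with an array left out. For hIMP1 Dmut minus hIMP1 wt it was -0.12 under median scaling, -0.085 with the mean of probe sets, -0.12 without the metallothioneins and -0.19 to 0.0038 with an array left out. For both constructs minus mock it was 0.0096 with the mean of probe sets and -0.083 to 0.13 with an array left out. The cause of these shifts was not tested.

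HSPA6 was followed at its brightest probe set only. It kept its direction throughout and lost its call without an intensity trend, at 5.45 (hIMP1 Dmut, limma adjusted p = 0.153), 4.69 (hIMP1 wt, 0.419) and 5.07 (both, 0.0942). With the offset at the median its difference was 4.41 with hIMP1 Dmut, 3.68 with hIMP1 wt and 4.05 with both, and stayed called. With hIMP1 wt the call was also lost with the offset at the 10th percentile (5.37, 0.0829) and with only the arrays compared (4.69, 0.231). With an array left out its difference was 4.63 to 6.27 with hIMP1 Dmut, 3.87 to 5.51 with hIMP1 wt, 4.25 to 5.89 with both, and 0.51 to 1.01 between constructs. Between the array numbers 2 stress probe sets were called under quantile and under cyclic loess scaling, 1 with no filter and 0 without an intensity trend, against 4, and 1 to 7 with an array left out. SQSTM1 lost its call without the trend (adjusted p = 0.165) and kept it under the other settings run. GCLM lost it under median scaling (0.317), with no filter (0.0564) and without the trend (0.190). HMOX1 lost it under quantile (0.0564) and cyclic loess scaling (0.0559), with no filter (0.0943) and without the trend (0.205). The second MT1X probe set lost it under all 3 scalings (0.0507 to 0.069), with the offset at the 10th percentile (0.0510), with no filter (0.0862) and without the trend (0.199).

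Arrays share only a number, with 2 numbers in all, and the labels do not say what it stands for, so the replicate block is no test of pairing. The main fit leaves the number out and counts its difference as spread. At the brightest probe set of each gene the standard error was larger without the block. With hIMP1 Dmut it was 0.36 without and 0.14 with the block for SQSTM1, 0.38 and 0.23 for HMOX1, and 0.31 and 0.29 for NQO1. With the number as a block 0 stress probe sets were called in each of the 4 comparisons. In that fit MT2A had an unadjusted p of 0.0215 with hIMP1 wt and 0.0435 with both constructs (-0.48 and -0.36), and the second DNAJB1 probe set was called for both constructs (1.00, adjusted p = 0.0486).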
